A study of Mus musculus with 6 samples.

Results

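The 9 genes described here are the core of the Sonic hedgehog pathway: the ligand Shh, its receptor Ptch1, the signal transducer Smo, the transcription factors Gli1, Gli2 and Gli3, the decoy receptor Hhip and the co-receptors Boc and Cdon. They were chosen by name, not by their measured values, and all 9 were found among the 26852 genes of the deposited table. RNA was sequenced from midbrains dissected at E14.5 from C57Bl/6 mouse embryos of 2 genotypes. The Lmx1b cKO embryos were Lmx1b fl/fl;Pitx3-Cre, and the control embryos were Lmx1b wt/wt;Pitx3-Cre, so both groups carried the Cre. Pitx3-Cre recombines in Pitx3-expressing cells, the post-mitotic dopamine neurons of the midbrain, whereas the RNA came from the whole dissected midbrain, in which these neurons are a part of the cells. Each group held 3 libraries, each made from 2 pooled embryos, and the embryos came from 4 litters. The comparison of both genotypes asked which transcripts of the midbrain differed after removal of Lmx1b from these neurons.

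In the hedgehog pathway, the secreted ligand binds Ptch1, which otherwise keeps Smo inactive. Active Smo in the primary cilium turns the Gli factors from repressors into activators, and Ptch1, Gli1 and Hhip are themselves induced by the signal. In the ventral neural tube Shh is made by the notochord and the floor plate, and in the midbrain the floor plate is also the region from which dopamine neurons arise.

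The deposited table gives a mean normalized count per group, that is, read counts divided by a size factor of each library. The reads of each library were recovered from these means as the only whole numbers that give them, which succeeded for 26248 genes (97.8% of genes, which hold 66.4% of the mean counts on genes) and for all 9 members. A recovered library has its genotype but cannot be tied to a sample, and the letters a, b and c below order the replicates of a group by falling size factor. Recovered reads were between 19711032 and 23954501 per library. Lmx1b itself was at 1257, 1401 and 1455 normalized counts in the cKO libraries, against 1368, 1352 and 1474 in the control libraries, so the sum over the whole gene did not separate the genotypes and does not check the labels. The midbrain markers En1, En2, Otx2, Pax7, Lmx1b and Th were present in all libraries. They summed to 6853, 7638 and 8141 in the cKO and to 8780, 8262 and 8817 in the control, so that every cKO library lay below every control library. Of these markers, En1 and En2 were lower in the cKO in limma (log2 fold change -0.40 and -0.46, unadjusted p = 0.00127 and 0.000862, adjusted p = 0.9998 for both). Otx2 was fitted higher (0.066), and Lmx1b, Pax7 and Th were fitted lower (-0.031, -0.16 and -0.16). The 6 measured Hox genes of hindbrain and spinal cord summed to at most 6.56. The 11 bone and mesenchyme markers stood at 14533 in cKO replicate c and at 2476 in cKO replicate a, against 810 to 937 in the other 4 libraries. Forebrain markers summed to 4863, 6380 and 5631 in the cKO and to 4788, 3513 and 4484 in the control, and 4 of the 7 tested were higher in the cKO at an unadjusted p under 0.05 in limma. The 6 dopamine neuron markers summed to 7606, 7604 and 7423 in the cKO and to 7334, 8291 and 8845 in the control. Of these 6, Ddc and Pitx3 were lower in the cKO (unadjusted p = 0.0354 and 0.0408 in limma, adjusted p = 0.9998 for both). An unadjusted p under 0.05 was held by 2.81% of all genes tested. Th, Slc6a3 and Nr4a2 were fitted lower without passing that threshold, and Slc18a2 was fitted higher (log2 fold change 0.13). The paper reports unaltered Pitx3 mRNA levels, and its in situ hybridization at E14.5 showed no clear change of Aadc (Ddc). Of the 6, 4 were highest in control replicate c, as was Shh, beside 14.9% of all genes tested. How far the marker differences reflect tissue content or expression per cell, and their part in the levels of the members, was not tested.

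The members include relatives that share sequence, and the longest identical stretches of their transcripts show how far reads could be confused between them. Boc and Cdon, immunoglobulin and fibronectin repeat proteins of the cell surface, share at most 31 bases. Gli2 and Gli3 share at most 25 bases, and Gli1 and Gli2 share at most 23. All these stretches lie in coding exons of GENCODE transcripts on GRCm38. They are printed 5′ to 3′ on the strand of the gene, with the identical stretch in capitals between 15 bases of flank on each side.
Boc, exon 13, chr16:44490592-44490622 (-): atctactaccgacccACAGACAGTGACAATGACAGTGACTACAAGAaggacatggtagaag
Cdon, exon 14, chr9:35478644-35478674 (+): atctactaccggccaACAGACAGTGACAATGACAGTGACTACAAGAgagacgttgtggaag
Gli2, exon 10, chr1:118846012-118846036 (-): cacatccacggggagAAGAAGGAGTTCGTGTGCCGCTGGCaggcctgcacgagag
Gli3, exon 11, chr13:15713529-15713553 (+): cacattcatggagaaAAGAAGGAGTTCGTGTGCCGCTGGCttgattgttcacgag
Gli1, across the junction after exon 9, chr10:127334362-127335983 (-): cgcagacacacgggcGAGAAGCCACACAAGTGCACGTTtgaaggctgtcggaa
Gli2, across the junction after exon 10, chr1:118844514-118845937 (-): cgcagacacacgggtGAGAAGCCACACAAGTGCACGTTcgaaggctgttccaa
These stretches are the longest of each pair, so the bases directly beside the capitals differ between both genes. The coordinates of the last pair include the intron that splicing removes.

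For none of the 9 members did Lmx1b cKO and control embryos differ by more than the spread between libraries. In limma, 0 of 9 had an adjusted p under 0.05, as did 0% of the 16573 genes tested. At an unadjusted p under 0.05 the count was also 0 of 9, beside 2.81% of all genes tested (197 higher and 269 lower in the cKO), and with limma-trend in place of voom weights it remained 0. The libraries of both groups overlapped for all 9 members, whereas 7.7% of all genes tested had groups that did not overlap. The fitted log2 fold change (cKO over control) was below 0 for 8 of 9 members and above 0 for Hhip, with a median of -0.15, beside a median of -0.00016 over all genes tested, of which 8303 were fitted lower and 8270 higher. These 8 are not independent of each other, since several of them followed the same libraries. Without control replicate a the median over the members was -0.066, without cKO replicate a it was -0.088, and without cKO replicate c it was -0.24. The intervals show what these libraries could have missed: the 95% interval of Ptch1 reached from 0.897-fold to 1.07-fold, and that of Hhip from 0.660-fold to 1.66-fold. In bulk RNA, fewer cells of a type and less RNA per cell cannot be told apart, and a change within the dopamine neurons would be diluted by the other cells of the midbrain.

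**Figure D1:**
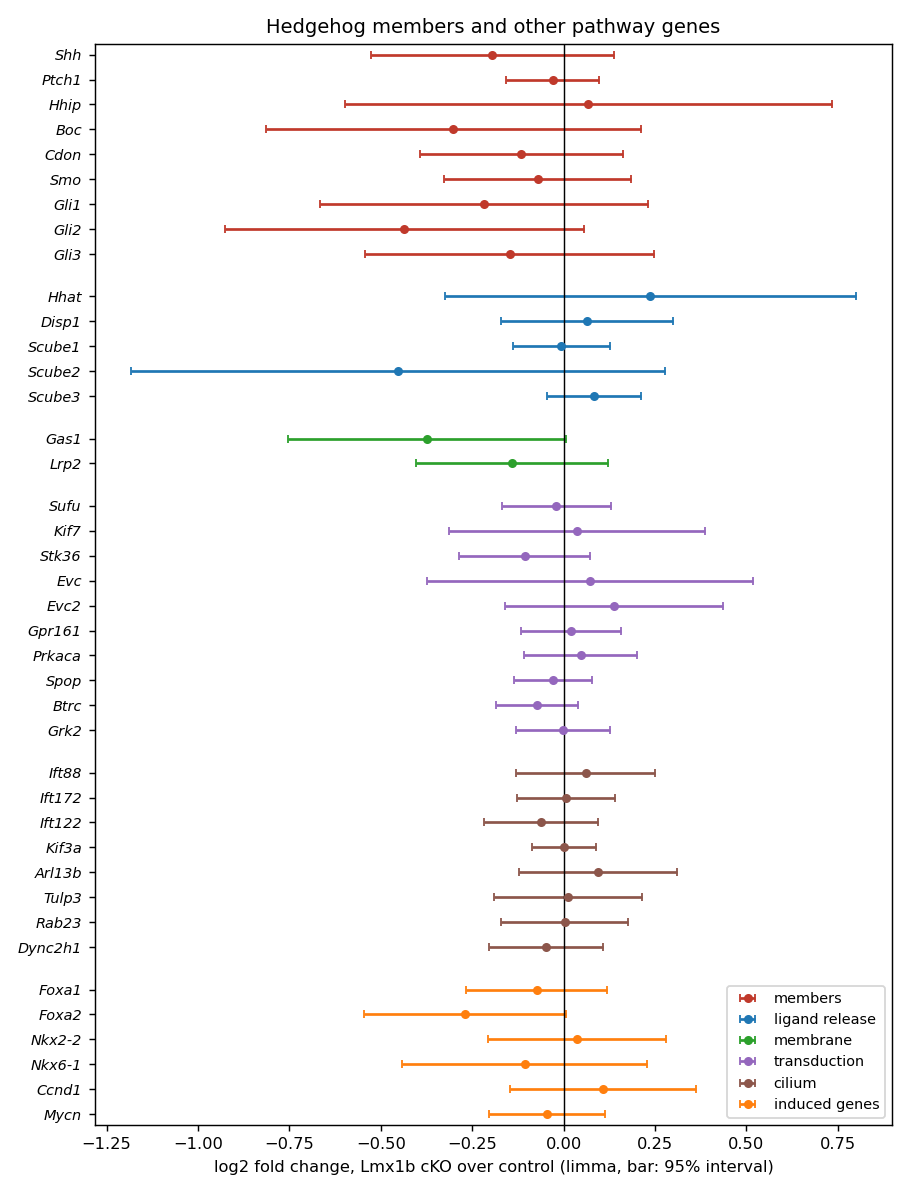
Log2 fold change of Lmx1b cKO over control (x axis) for each of the 9 members and other pathway genes tested (y axis), in groups by role, with the 95% interval from limma as a bar. Every bar crosses 0, and the widest among the members belongs to Hhip (-0.60 to 0.73).

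Shh (ENSMUSG00000002633, chr5:28456815-28467256, minus strand, GRCm38) encodes the secreted ligand. It was at 425, 479 and 500 normalized counts in the cKO libraries, against 472, 471 and 705 in the control libraries. Control replicate c stood apart from the other 5 libraries, and the remaining values of both groups lay in 1 range. The means were 468 ± 38.5 in the cKO and 549 ± 135 in the control (SD, n = 3), and the log2 fold change was -0.20 (SE 0.15, unadjusted p = 0.224 in limma, 95% interval -0.53 to 0.14). With 1 library left out it ran from -0.29 without control replicate a (unadjusted p = 0.0939) to -0.018 without control replicate c. The 7 floor plate markers, of which Foxa1 and Foxa2 are also in the pathway lists, summed to 8220, 8165 and 10340 in the cKO and to 8355, 8518 and 10295 in the control. Of the 7, 4 were, like Shh, highest in control replicate c, the library that held the highest value for 14.9% of all genes tested. Among these markers Corin, a transmembrane protease of floor plate cells, was at 116, 82.4 and 180 in the cKO and at 147, 177 and 267 in the control (log2 fold change -0.65, SE 0.28, unadjusted p = 0.0419 in limma, adjusted p = 0.9998). The part of floor plate content in the level of Shh was not tested. Genes 9530036O11Rik and Gm26894, on the opposite strand, overlap 15.7% and 12.7% of the exon length of Shh, and the use of strand in the counting is not given in the sources used here. They were at 5.28 to 24.9 and at 4.68 to 30.6 normalized counts, far under Shh.

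**Figure D2:**
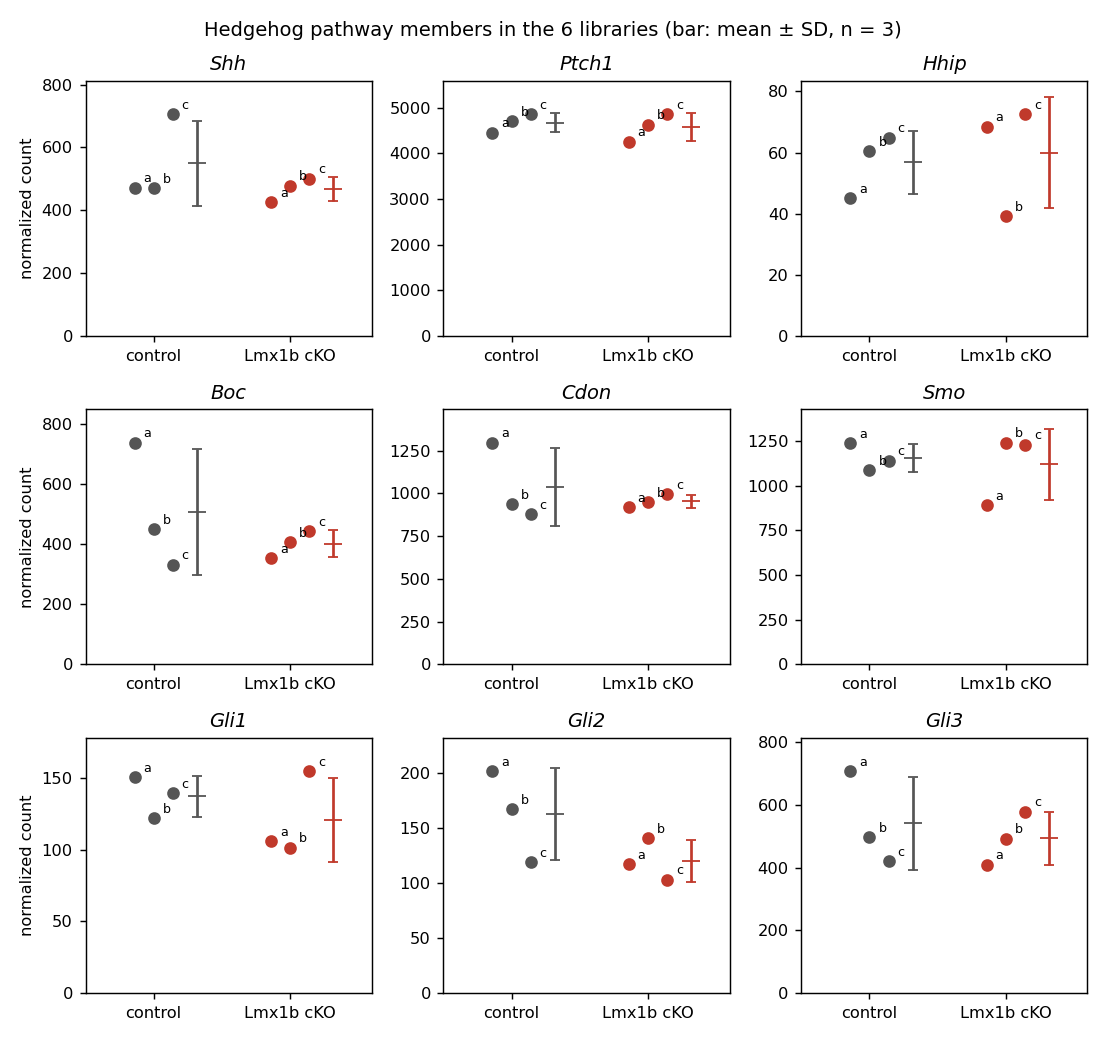
Normalized count (y axis, from 0) of the 9 members in the 3 control libraries (grey) and the 3 Lmx1b cKO libraries (red), with 1 point per library labelled a, b or c and the mean ± SD of the group beside it. The groups overlap in every panel, and single libraries such as control replicate c for Shh and control replicate a for Boc stand apart.

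Ptch1 (ENSMUSG00000021466, chr13:63508328-63573598, minus strand) is the receptor that restrains Smo, and its own transcription is raised by the signal. Its level was the steadiest of the 9 members, with 4262, 4630 and 4859 normalized counts in the cKO libraries, against 4452, 4712 and 4856 in the control libraries. The highest library exceeded the lowest 1.14-fold, and the coefficient of variation was 4.38% in the control and 6.57% in the cKO, where counting alone gives about 1.47%. For Ptch1 the log2 fold change was -0.030 (SE 0.058, unadjusted p = 0.621 in limma). It turned to 0.024 without cKO replicate a, the lowest library.

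Hhip (ENSMUSG00000064325, chr8:79965851-80058006, minus strand), which binds the ligand at the cell surface and thereby limits its spread, is a further gene induced by the signal. It was the scarcest member, at 68.4, 39.1 and 72.5 normalized counts in the cKO libraries, against 45.1, 60.5 and 64.8 in the control libraries. These values interleaved, and with 37 to 73 reads per library counting alone gives a variation of about 13.1%. For Hhip the log2 fold change was 0.067 (SE 0.30, unadjusted p = 0.829 in limma). Its sign turned in 4 of the 15 alternatives in which it was tested, and with 1 library left out it ranged from -0.10 without control replicate a to 0.34 without cKO replicate b.

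Boc (ENSMUSG00000022687, chr16:44485049-44558897, minus strand) and Cdon (ENSMUSG00000038119, chr9:35421128-35507652, plus strand) bind the ligand beside Ptch1 and promote signalling. Boc varied more between libraries than any other member. It stood at 353, 406 and 443 normalized counts in the cKO libraries, against 736, 450 and 330 in the control libraries, so that the control held both the highest and the lowest value. The coefficient of variation of Boc was 41.3% in the control and 11.2% in the cKO, where counting gives about 4.65%. The log2 fold change of Boc was -0.30 (SE 0.24, unadjusted p = 0.225 in limma), which became -0.55 without control replicate c (unadjusted p = 0.0204) but 0.030 without control replicate a. Cdon was at 918, 947 and 995 in the cKO libraries, against 1295, 936 and 879 in the control libraries, again with control replicate a on top and control replicate c at the bottom. Its log2 fold change was -0.12 (SE 0.13, unadjusted p = 0.379 in limma), and 0.067 without control replicate a.

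Smo (ENSMUSG00000001761, chr6:29735503-29761365, plus strand), the seven-pass membrane protein that carries the signal inward, was at 891, 1240 and 1231 normalized counts in the cKO libraries, against 1239, 1086 and 1141 in the control libraries. Only cKO replicate a lay below the control values, and cKO replicates b and c lay next to the highest of them. For Smo the log2 fold change was -0.071 (SE 0.12, unadjusted p = 0.556 in limma), and it turned to 0.097 without cKO replicate a.

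Gli1, Gli2 and Gli3 are the zinc finger factors at the end of the pathway. The longest stretches that Gli2 shares with Gli1 and with Gli3 are printed above, and Gli1 and Gli3 share at most 14 bases. Gli1 acts as an activator and is the gene most often used to read the signal, Gli2 is the main activator that is present before the signal, and Gli3 is mainly cut to a repressor when the signal is absent. Gli1 (ENSMUSG00000025407, chr10:127329882-127341974, minus strand) was at 106, 101 and 155 normalized counts in the cKO libraries, against 150, 122 and 139 in the control libraries. Replicates a and b of the cKO lay below all control libraries, and cKO replicate c lay above them. The log2 fold change of Gli1 was -0.22 (SE 0.21, unadjusted p = 0.311 in limma). With 1 library left out it ran from -0.40 without cKO replicate c (unadjusted p = 0.0897) to -0.12 without cKO replicate b (unadjusted p = 0.622). Of its exon length, 5.31% is overlapped by the antisense gene Gm47200 and 1.24% by Arhgap9 on the opposite strand.

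Gli2 (ENSMUSG00000048402, chr1:118834132-119053619, minus strand) had the largest fitted difference of the 9 members. It was at 117, 141 and 103 normalized counts in the cKO libraries, against 202, 167 and 119 in the control libraries. Control replicates a and b lay above all cKO libraries, and control replicate c lay among them. The means of Gli2 were 120 ± 19.0 in the cKO and 163 ± 41.7 in the control (SD, n = 3), and the exact two-sided permutation test over the libraries gave p = 0.2, where 3 libraries against 3 cannot go below 0.1. Its log2 fold change was -0.44 (SE 0.22, unadjusted p = 0.0769 in limma, adjusted p = 0.9998, 95% interval -0.93 to 0.055). It was -0.63 without control replicate c (unadjusted p = 0.0123, adjusted p = 0.9999) and -0.25 without control replicate a. Gli3 (ENSMUSG00000021318, chr13:15463235-15730026, plus strand) was at 409, 492 and 578 in the cKO libraries, against 708, 498 and 421 in the control libraries. The control values enclosed all but the lowest cKO value. The log2 fold change of Gli3 was -0.15 (SE 0.18, unadjusted p = 0.432 in limma), and 0.077 without control replicate a.

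Sequence before transcript starts was compared because Gli factors bind a known motif, TGGGTGGTC. Of the 9 members, 6 (Cdon, Gli2, Gli3, Hhip, Ptch1 and Smo) had a window of 250 bases before a transcript start in the RefSeq table of build GRCm38.p6. These starts need not be the first of the gene: the windows of Cdon and Ptch1 lie inside the GENCODE gene, and that of Gli3 lies in annotated exon over all 250 bases. The motif was searched on both strands (reverse complement GACCACCCA). It was in 0 of these 6 windows and in 0.225% of all 32851 windows of that length. Its inner 7 letters, GGGTGGT (reverse complement ACCACCC), which lie within the full motif, were in 1 of the 6 windows and in 3.92% of all windows. That window belongs to Gli2, the member with the largest fitted difference, and the match in capitals begins 205 bases before the start. A match is a description of letters and not a bound site.
Gli2, chr1:119053620-119053869 (-): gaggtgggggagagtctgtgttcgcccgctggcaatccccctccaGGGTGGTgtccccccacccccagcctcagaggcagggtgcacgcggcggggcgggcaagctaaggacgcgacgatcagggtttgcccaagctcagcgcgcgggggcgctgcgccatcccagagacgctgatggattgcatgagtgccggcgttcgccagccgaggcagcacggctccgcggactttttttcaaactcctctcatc
The window holds 22 CpG and 67.2% G and C.

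Per length of exon, Ptch1 was the most abundant member, with a mean over the 6 libraries of 326 normalized counts per kb of exon. Smo followed at 202, Shh at 179, Cdon at 129, Boc at 102, Gli3 at 54.0, Gli1 at 25.8, Gli2 at 20.6 and Hhip at 6.44 normalized counts per kb. The Gli factors ranked under the membrane proteins other than Hhip. Between neighbours in this order, the libraries overlapped for Smo and Shh, for Shh and Cdon, for Cdon and Boc and for Gli1 and Gli2, so these neighbours were not separated by their spread. They did not overlap for Ptch1 and Smo, Boc and Gli3, Gli3 and Gli1 or Gli2 and Hhip. Boc and Gli3 were separated narrowly, at 74.3 in the lowest library of Boc against 73.8 in the highest of Gli3.

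**Figure D3:**
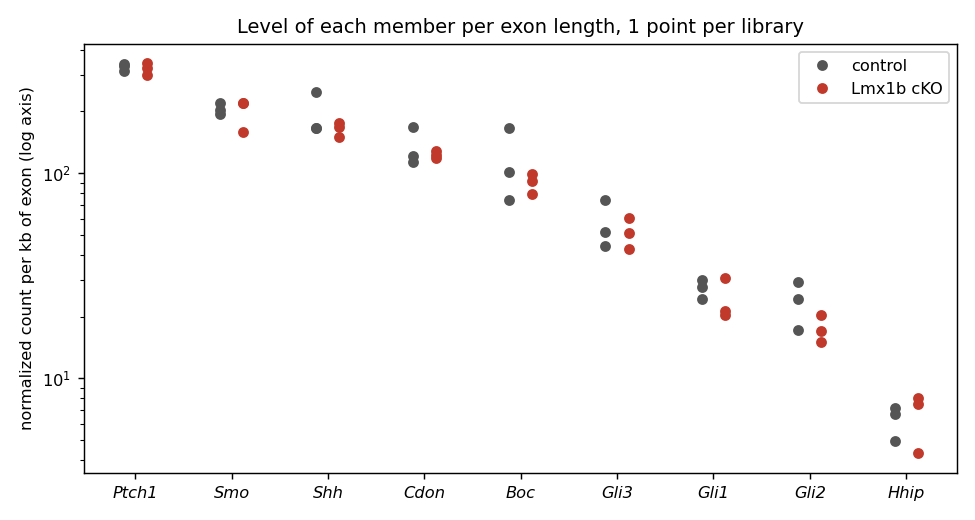
Normalized count per kb of exon (y axis, log scale) of the 9 members (x axis, in falling order of the mean), with 1 point per library, control in grey and Lmx1b cKO in red. Ptch1 lies above all other members at 326 and Hhip below all at 6.44, and the genotypes overlap within each gene.

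The members did not vary independently of the libraries. Boc, Cdon, Gli2 and Gli3, 4 of the 9 members, were highest in control replicate a, the library that held the highest value for 18.8% of all genes tested. The 10 markers of cycling cells, among them Mki67 and Top2a, were all highest in that library, and their sum was 9215 there, 5961 and 6612 in the other control libraries, and 6096, 7496 and 7657 in the cKO libraries. With the summed level of the cycling markers as a covariate in limma, the log2 fold change was -0.26 for Boc (SE 0.15, unadjusted p = 0.102), -0.097 for Cdon (SE 0.083), -0.42 for Gli2 (SE 0.21) and -0.10 for Gli3 (SE 0.12). None passed the threshold. Ptch1, Gli1 and Hhip, the members that the signal itself induces, were highest in cKO replicate c, in each case narrowly. The next library was control replicate c for Ptch1 (4856 against 4859), control replicate a for Gli1 (150 against 155) and cKO replicate a for Hhip (68.4 against 72.5). Replicate c of the cKO held the highest value for 16.4% of all genes tested and had the bone and mesenchyme markers at 14533. Without that library the log2 fold change was -0.072 for Ptch1, -0.40 for Gli1 and -0.080 for Hhip. With the summed level of the bone and mesenchyme markers as a covariate it was -0.071 for Ptch1, -0.51 for Gli1 (unadjusted p = 0.0636) and -0.25 for Hhip, and that for Gli2 was -0.24. That sum was raised in cKO replicates a and c and in no control library. This covariate therefore overlaps with genotype, and the fit cannot fully separate them. Shh, Ptch1, Smo and Gli3 were lowest in cKO replicate a, which held the lowest value for 19.1% of all genes tested.

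**Figure D4:**
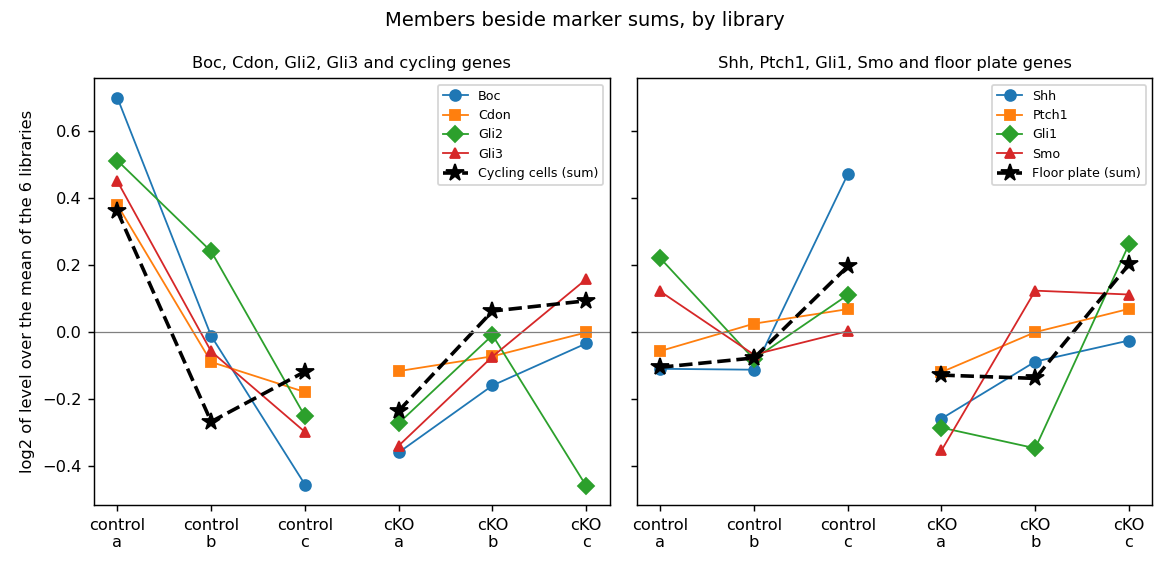
Log2 of the level over the mean of the 6 libraries (y axis) in each library (x axis, control on the left and cKO on the right of each panel), for Boc, Cdon, Gli2 and Gli3 with the summed cycling markers (left panel, black stars) and for Shh, Ptch1, Gli1 and Smo with the summed floor plate markers (right panel, black stars). Lines join the points of 1 gene and imply no order of replicates. Control replicate a is the highest library of all 5 lines on the left, where the cycling sum was 9215, and control replicate c that of Shh on the right.

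The 38 other genes of the pathway, listed by role, were read from the same fit. Of these, 35 had reads recovered and 32 reached a mean normalized count of 10 and were tested. None of the 32 passed an unadjusted p under 0.05 or an adjusted p under 0.05 in limma, with 15 fitted lower and 17 higher and a median log2 fold change of 0.0025. Gli factors had a median of -0.22, membrane receptors, co-receptors and inhibitors of -0.094, and genes induced by hedgehog in the neural tube of -0.045, members included. Ligands and their release stood at 0.028, transduction inside the cell at 0.0083 and cilium genes at 0.0048.

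Among the ligands, Dhh and Ihh, the relatives of Shh, were scarce, at 6.34 to 9.73 and 4.68 to 8.66 normalized counts, and were not tested. Scube3, which helps to release the lipid-bearing ligand, was the most abundant recovered gene of this group per length, at 287 normalized counts per kb. It was at 2632, 2605 and 2580 normalized counts in the cKO libraries, against 2320, 2619 and 2456 in the control libraries (log2 fold change 0.083, SE 0.059). Scube2, of the same family, was at 52.5, 81.4 and 57.4 in the cKO libraries, against 124, 52.8 and 92.9 in the control libraries (log2 fold change -0.45, SE 0.33), and its log2 fold change was -0.80 without control replicate b (unadjusted p = 0.0152) but -0.15 without control replicate a (unadjusted p = 0.663). Disp2 was above the range of read recovery, with the authors' means at 11463 in the cKO and 10875 in the control. At the membrane, Gas1, a co-receptor that acts with Boc and Cdon, was at 224, 231 and 235 in the cKO libraries, against 350, 326 and 222 in the control libraries. As for Boc, Cdon, Gli2 and Gli3, its highest value was in control replicate a. Its log2 fold change was -0.37 (SE 0.17, unadjusted p = 0.0530 in limma, 95% interval -0.75 to 0.0058), and it was -0.36 with the cycling markers as a covariate (unadjusted p = 0.0465) and -0.56 without control replicate c (unadjusted p = 0.00239), and -0.24 without control replicate a. The noncoding gene Gm48488 overlaps 19.9% of the exon length of Gas1 on the opposite strand.

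Inside the cell, Sufu, which holds Gli proteins back, was at 1091, 1152 and 1119 normalized counts in the cKO libraries, against 1164, 1094 and 1146 in the control libraries. Prkaca, the catalytic subunit of protein kinase A that marks Gli proteins for cleavage, was the most abundant recovered gene of this group per length, and its log2 fold change was 0.047 (SE 0.071). Csnk1a1 and Gsk3b, the kinases that act after it, were above the range of read recovery, with the authors' means at 13715 and 12359 in the cKO and 13895 and 11976 in the control. Evc2, part of a complex near the base of the cilium, was the 1 gene of the 32 tested whose groups did not overlap (7.7% of all genes tested), at 215, 242 and 229 in the cKO libraries, against 212, 214 and 193 in the control libraries, and it did not pass in limma (log2 fold change 0.14, SE 0.14, unadjusted p = 0.331). The 8 cilium genes, from Kif3a, a motor subunit of transport into the cilium, to Dync2h1, the motor of the way back, spanned only -0.061 to 0.094 on the log2 scale, and Kif3a differed by 0.0018 (SE 0.040).

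Of the genes that hedgehog induces in the ventral neural tube, Foxa1 was the most abundant per length, at 408 normalized counts per kb, and was at 1228, 1307 and 1429 normalized counts in the cKO libraries, against 1378, 1253 and 1553 in the control libraries. Foxa2, the floor plate factor that also activates Shh, was at 483, 604 and 634 in the cKO libraries, against 595, 709 and 769 in the control libraries. The groups overlapped, with the lowest library of each group in replicate a. The log2 fold change of Foxa2 was -0.27 (SE 0.13, unadjusted p = 0.0558 in limma, 95% interval -0.55 to 0.0078). It was -0.38 without control replicate a (unadjusted p = 0.00992), -0.34 without cKO replicate c (unadjusted p = 0.0328) and -0.28 with the cycling markers as a covariate (unadjusted p = 0.0396), and the adjusted p was above 0.99 in each of these fits. Without cKO replicate a it was -0.14. Nkx2-2 and Nkx6-1, homeodomain factors of the ventral progenitor domains, had log2 fold changes of 0.036 (SE 0.11) and -0.11 (SE 0.15). Without control replicate a these were -0.082 and -0.30 (unadjusted p = 0.0239 for Nkx6-1), and that of Nkx6-1 was 0.035 with control replicate c left out. Ccnd1 and Mycn, growth genes that hedgehog raises in progenitors, had log2 fold changes of 0.11 (SE 0.12) and -0.045 (SE 0.073). Pathway genes other than the members and the most abundant of each list, such as Gas1, Evc2, Foxa2 and Scube2, were picked out after their values were seen.

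The profiles of Shh, Ptch1 and Gli1 over the 6 libraries were compared with those of 12340 genes whose mean normalized count was 100 or more, by the root mean square difference of the centred log2 values. For Shh, whose own spread was 0.23 on this scale, the nearest genes were Dmrta2 at 0.053, Hmox1 at 0.062 and the long noncoding RNA 9030622O22Rik at 0.078. Dmrta2, a transcription factor of neural progenitors, was at 555, 697 and 709 normalized counts in the cKO libraries, against 652, 661 and 944 in the control libraries, with the same high control replicate c as Shh. 9030622O22Rik (chr2:147944740-148040203, minus strand) starts 2673 bases beyond the 3′ end of Foxa2 (chr2:148042877-148046969, minus strand). For Ptch1, with a spread of only 0.068, they were Psmb5 at 0.011, Kcp at 0.017 and Mettl17 at 0.019. For Gli1, with a spread of 0.24, they were Tubb6 at 0.055, Cp at 0.057 and Rwdd2b at 0.072. These are the smallest of many differences over only 6 libraries, and they are given as a description.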

How the data were processed

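RNA of dissected E14.5 midbrains (3 Lmx1b cKO and 3 control libraries) was processed by the authors, per the labels with TopHat 1.0.14, Bowtie2 2.1.0, HTSeq 0.6.1p1 and DESeq 1.10.1 on GRCm38.p4, whereas the study's text names DESeq2. The authors deposited 1 table with the mean normalized read count (signal) over all libraries and per group, on 26852 genes while 3 lines without a gene, with 31.8% of the mean counts, were left out. Its columns of the authors' ratios, log2 ratios and p-values were not used. For each group mean, the 3 whole read numbers that give it were searched up to 30000 reads; size factors of 0.924 to 1.13 were read from the smallest means, and those recomputed from the recovered reads differed by at most 0.169%. These reads were scaled by the size factors and tested with limma 3.58.1 (voom weights, R 4.3.3) over the 16573 genes whose mean normalized count was 10 or more, with genotype as the only term and Benjamini-Hochberg adjustment over all of them. The limma fit was tested on simulated counts. p-values measure the spread between libraries of 2 pooled embryos each, and counting variation covers counting error only. Single genes were compared by the exact permutation test. Names, positions and exon lengths came from GENCODE on GRCm38 (26693 of 26852 genes matched) and windows before transcript starts from RefSeq. Scripts ran in Python 3.11.15 (matplotlib 3.10.9, pandas 2.3.3, scipy 1.17.1, numpy 2.4.6). The members, the pathway and marker lists and the tests were chosen with earlier results of these data known. Genes named are all 9 members, listed genes at an unadjusted p under 0.05, the most abundant recovered gene of each list per length, genes with at most 3 reads in every library, the 3 genes nearest in profile to Shh, Ptch1 and Gli1, and markers; other pathway genes were named after their values were seen. Of the listed pathway genes, 1 is not reported here and enters only the counts and medians of its list. Alternatives were other minimum means, scalings and thresholds, limma-trend, marker covariates and each library left out in turn.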

Additional observations from a re-analysis of the deposited data

How the results depend on the processing

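With 3 libraries per group, the 95% interval reached 0.24 to either side of the log2 fold change for the median gene, and among the members this reach ran from 0.13 for Ptch1 to 0.67 for Hhip. The number of members at an unadjusted p under 0.05 in limma was 0 under every alternative but one, and 2 without control replicate c (Boc and Gli2), so that leaving out 1 library gave 0 to 2; at an adjusted p under 0.05 it was 0 throughout. For the other pathway genes the count at an unadjusted p under 0.05 was 0, but 2 with the cycling markers as a covariate (Gas1 and Foxa2), and 0 to 2 with 1 library left out. It was 2 without control replicate a (Foxa2 and Nkx6-1), and 1 without cKO replicate c (Foxa2), without control replicate b (Scube2) or without control replicate c (Gas1). Over all genes tested the count of 466 became 302 at a minimum mean of 100, 968 with no minimum, 67 at an unadjusted threshold of 0.01 and 339 to 637 with 1 library left out. The first 2 differ in the genes tested, and the third in the threshold. The count over all genes at an adjusted p under 0.05 was 0, but 1 with the cycling markers as a covariate (Aldh1a1) and 0 to 3 with 1 library left out, and the 3 (Kdm5d, Uty and Ddx3y, genes of the Y chromosome) came without control replicate a. The sign of the log2 fold change turned without cKO replicate a for Ptch1 (0.024), Smo (0.097) and Hhip (-0.063), without control replicate a for Gli3 (0.077), Boc (0.030), Cdon (0.067) and Hhip (-0.10), and for Hhip also without cKO replicate c (-0.080) and with the bone and mesenchyme markers as a covariate (-0.25). The cause was not tested. With 1 library left out, the values ran from -0.072 to 0.024 for Ptch1, -0.15 to 0.097 for Smo, -0.30 to 0.077 for Gli3, -0.10 to 0.34 for Hhip, -0.40 to -0.12 for Gli1, -0.29 to -0.018 for Shh, -0.55 to 0.030 for Boc and -0.22 to 0.067 for Cdon. Shh, Gli1 and Gli2 kept their sign under all 16 alternatives. No paired analysis was possible because the recovered libraries carry no replicate number that would tie a cKO library to a control library.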
